A study of Mus musculus with 5 samples.

Results

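The 6 spots described here are those named mmu-miR-3968, mmu-miR-5100, mmu-miR-6366, mmu-miR-5097, mmu-miR-5126 and mmu-miR-6412, out of 1265 mouse microRNA (miRNA) spots on each array. They were chosen by their spot medians (the median brightness of a spot's pixels), which were very high on these same arrays, so their brightness is a description and was not tested. For each of 5 mouse cell cultures, Hy5-labelled total RNA was hybridised to 1 array with 1 spot per miRNA. Of the 4 embryonic stem (ES) cell cultures, all grown with leukaemia inhibitory factor (LIF), V6.5 ES is the wild type, PKM1 KI ES carries a PKM1 knock-in, and 2TS22c ES and ZHBTc4 ES are further ES lines. The embryoid body (EB) was differentiated from V6.5 as a floating culture over 1 week in medium without LIF. The labels give no further genotype or treatment and no replicate culture, nor whether a line is 1 clone. Every difference between cultures is therefore a difference between single arrays, with no replicate check.

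A miRNA is a short RNA cut from 1 arm of a hairpin by the nucleases Drosha and Dicer and loaded into an Argonaute protein, where its seed (bases 2 to 8) pairs with messenger RNAs. Names are numbered in the order in which miRNAs were entered into the registry, so that high numbers are mostly entries made from deep sequencing. Fragments of transfer RNA (tRNA), ribosomal RNA and small nucleolar RNA are of similar size and abundant in total RNA, and some registered miRNAs have been questioned on that ground. In tRNAs the loop of the T arm is strongly conserved, and the trinucleotide CCA is added to the 3′ end. A spot's brightness depends on how well its probe binds as well as on how much RNA is present, so the signals of different probes do not rank miRNAs by amount. An array also cannot tell a miRNA from a longer or different RNA that holds the complementary stretch.

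Mature sequences were found in RefSeq (GRCm38.p6) for 5 of the 6 miRNAs, all but miR-5097. They are shown because the question of their annotation turns on them. The seed is in capitals, and each is written 5′ to 3′.
miR-3968: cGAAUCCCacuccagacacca
miR-5100: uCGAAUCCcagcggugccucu
miR-6366: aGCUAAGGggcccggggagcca
miR-5126: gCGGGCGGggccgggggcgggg
miR-6412: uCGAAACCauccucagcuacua

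RefSeq places miR-3968 at chr11:115447969-115447989 on the minus strand and miR-5100 at chr11:60728698-60728718 on the plus strand. It places miR-6366 at chr16:18165093-18165114 on the minus strand, miR-5126 at chr1:84695890-84695911 on the plus strand and miR-6412 at chr10:122648412-122648433 on the plus strand. In the RefSeq annotation, the gene of miR-3968 overlapped Trim80, that of miR-5100 overlapped Mief2 and that of miR-5126 overlapped Dner, all protein-coding. The gene of miR-6412 overlapped the long non-coding RNA Gm36284, and that of miR-6366 overlapped no other gene. None of the 5 loci overlapped an annotated tRNA, ribosomal RNA, small nuclear or small nucleolar RNA gene. That lookup concerns position only, and similarity to such genes elsewhere in the genome was not tested.

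miR-3968 was the brightest miRNA spot on every array. Its spot medians were 43181 in V6.5 ES, 42695 in PKM1 KI ES, 29406 in EB, 44447 in 2TS22c ES and 48512 in ZHBTc4 ES. These were 889 to 990 times the median of the array's blank spots. The EB value is the lowest, but the detector gain was 43 on that array and 46 or 47 on the others, so raw values across arrays are not on one scale.

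miR-5100 ranked 2 on every array. Its medians were 31338 in V6.5 ES, 29295 in PKM1 KI ES, 24225 in EB, 27980 in 2TS22c ES and 34114 in ZHBTc4 ES. No other miRNA came between it and miR-3968 on any of the 5 arrays.

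miR-6366 ranked 3 on the 4 ES arrays and 4 on the EB array. Its medians were 23042 in V6.5 ES, 25410 in PKM1 KI ES, 15579 in EB, 21172 in 2TS22c ES and 26840 in ZHBTc4 ES. miR-5097 followed, at rank 4 in V6.5 ES, 2TS22c ES and ZHBTc4 ES, 5 in PKM1 KI ES and 6 in EB. Its medians were 19122 in V6.5 ES, 17216 in PKM1 KI ES, 10352 in EB, 16048 in 2TS22c ES and 18855 in ZHBTc4 ES. These 4 spots thus lay among the 6 brightest on all 5 arrays.

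The last 2 spots were less steady in rank. miR-5126 had medians of 11888 in V6.5 ES, 14697 in PKM1 KI ES, 11975 in EB, 2717 in 2TS22c ES and 3676 in ZHBTc4 ES. It ranked 6, 6 and 5 on the first 3 of these arrays and 10 and 9 on the 2TS22c ES and ZHBTc4 ES arrays, where it was low. miR-6412 had medians of 7432 in V6.5 ES, 5237 in PKM1 KI ES, 4154 in EB, 7863 in 2TS22c ES and 9255 in ZHBTc4 ES. Its ranks ran the other way: 8, 11 and 13 in V6.5 ES, PKM1 KI ES and EB, and 5 in both 2TS22c ES and ZHBTc4 ES.

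**Figure D1:**
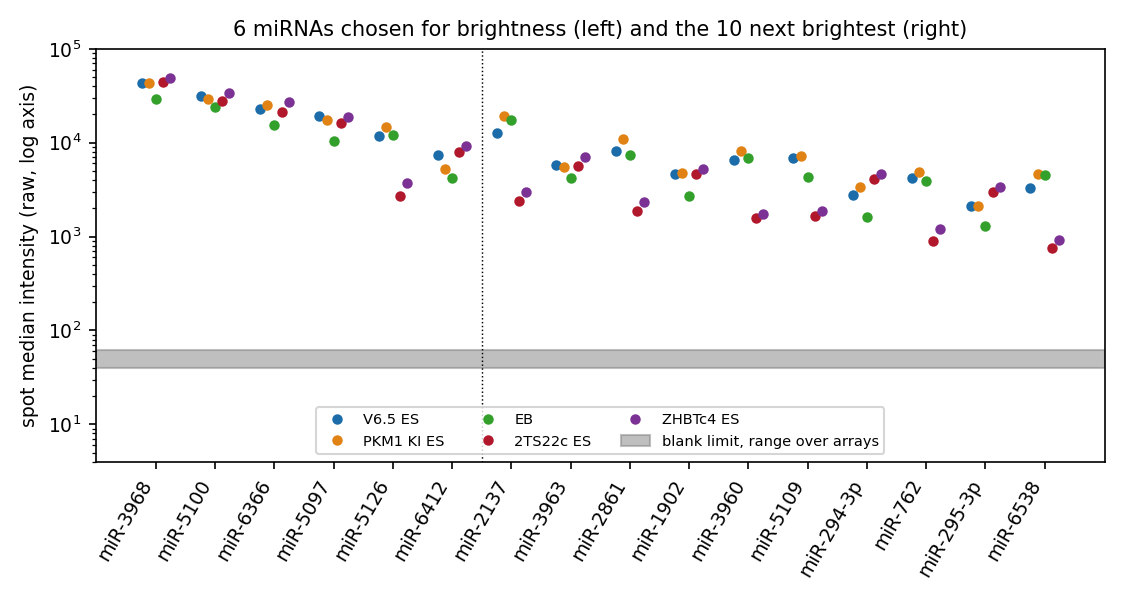
Spot median intensity (raw, log axis) of the 6 miRNAs chosen for brightness, left of the dotted line, and of the 10 next brightest by mean rank, with 1 point per array; the grey band spans the detection limits of the 5 arrays. miR-3968 lies highest on every array, while miR-5126 and several of the next 10, such as miR-2137, are low in 2TS22c ES and ZHBTc4 ES.

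The choice had no sharp edge. The lowest of the 6 was miR-6412 on the V6.5 ES, PKM1 KI ES and EB arrays, where 2, 5 and 7 other miRNAs were brighter than it. On the 2TS22c ES and ZHBTc4 ES arrays it was miR-5126, with 4 and 3 others brighter. The brightest spot outside the 6 was miR-2137 on the first 3 arrays, with medians of 12793, 19279 and 17416, and miR-3963 on the 2TS22c ES and ZHBTc4 ES arrays, with 5592 and 6989. By mean rank, miR-2137 (6.8) came before miR-5126 (7.2) and miR-6412 (8.4). All 6 were among the 20 brightest spots on each array, and 5 of them among the 6 brightest.

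Together the 6 spots held a large share of all miRNA signal. After the median of the blank spots was taken off each spot, they made up 44.6% of the summed signal of the 1265 miRNA spots in V6.5 ES, 41.2% in PKM1 KI ES, 38.9% in EB, 59.8% in 2TS22c ES and 60.3% in ZHBTc4 ES. The shares in 2TS22c ES and ZHBTc4 ES lie above those of the other 3 arrays. The 6 brightest spots of each array, whichever they were, held between 44.3% and 61.7%. By spot, miR-3968 held 14.2%, 13.1%, 12%, 22.2% and 20.7% in the same order of cultures, and miR-5100 held 10.3%, 8.97%, 9.85%, 13.9% and 14.6%. miR-6366 held from 6.33% in EB to 11.5% in ZHBTc4 ES, and miR-5097 from 4.2% in EB to 8.05% in ZHBTc4 ES. miR-6412 held from 1.59% in PKM1 KI ES to 3.94% in ZHBTc4 ES. miR-5126 was the only one of the 6 with a lower share in 2TS22c ES (1.33%) and ZHBTc4 ES (1.55%) than in V6.5 ES (3.89%), PKM1 KI ES (4.49%) and EB (4.86%).

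Few spots carried most of the light. It took the 8 brightest spots to reach 50% of the signal in V6.5 ES, PKM1 KI ES and EB, and 4 in 2TS22c ES and ZHBTc4 ES. To reach 90% took between 74 spots in ZHBTc4 ES and 122 in V6.5 ES. A sum over all spots, or a scaling to that sum, is thus set largely by these few probes.

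A share rises when a spot gains signal or when the rest loses it, so both were set against the spike controls of the same array (16 spots of control RNA). The 6 spots summed to 11.6 times the mean spike signal in V6.5 ES, 12 in PKM1 KI ES, 14.7 in EB, 11.7 in 2TS22c ES and 12.9 in ZHBTc4 ES. The other 1259 spots summed to 14.5, 17.1, 23, 7.85 and 8.51 times the spike mean. Relative to V6.5 ES, the 6 spots stood at 1 and 1.11 in 2TS22c ES and ZHBTc4 ES, and the other spots at 0.542 and 0.588. On the spike scale the higher shares there thus went with a lower sum of the other spots. In EB both sums were higher than in V6.5 ES, by 1.26 times for the 6 and 1.59 times for the rest. Whether equal amounts of spike RNA were added to each sample is not given in the sources used here.

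**Figure D2:**
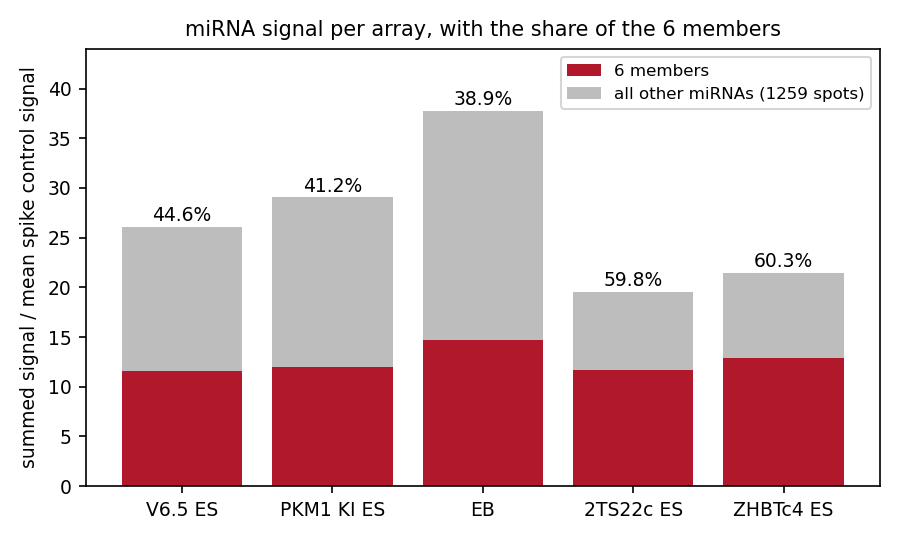
Summed signal of the 6 miRNA spots and of the 1259 other miRNA spots on each array, divided by that array's mean spike control signal, with the share of the 6 printed above each bar. The red parts run from 11.6 to 14.7, while the grey parts run from 7.85 in 2TS22c ES to 23 in EB.

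Spot by spot, 4 of the 6 varied by at most 1.43 times against the spikes. Within an array, the spots of a spike control varied by 5.36% to 7.86% (coefficient of variation, 8 spots per control), which is the only repeat of a spot available. It covers spot noise alone, not labelling, hybridisation or culture, so a step larger than it does not show that cultures differ. miR-5097 had the narrowest range, from 1.53 times the spike mean in PKM1 KI ES to 1.72 in ZHBTc4 ES, and its neighbours in that order differed by less than the highest of these spike values, 7.86%. miR-3968 stood at 3.7 in V6.5 ES and 3.8 in PKM1 KI ES, and at 4.33, 4.44 and 4.51 in 2TS22c ES, ZHBTc4 ES and EB. Its steps other than that between 3.8 and 4.33 were smaller than the spike spread. miR-6366 ran from 1.97 in V6.5 ES to 2.46 in ZHBTc4 ES, and miR-5100 lay between 2.6 and 2.72 in PKM1 KI ES, V6.5 ES and 2TS22c ES, then at 3.12 in ZHBTc4 ES and 3.71 in EB. The highest over the lowest array came to 1.13 for miR-5097, 1.22 for miR-3968, 1.25 for miR-6366 and 1.43 for miR-5100.

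miR-6412 and miR-5126 varied more. miR-6412 stood at 0.462 times the spike mean in PKM1 KI ES, at 0.632 and 0.633 in EB and V6.5 ES, which do not differ beyond the spike spread, and at 0.762 and 0.844 in 2TS22c ES and ZHBTc4 ES, a range of 1.83 times. miR-5126 stood at 0.26 in 2TS22c ES, 0.333 in ZHBTc4 ES, 1.01 in V6.5 ES, 1.3 in PKM1 KI ES and 1.83 in EB. The range was 7.04 times.

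The ratio of 2 spots on the same array needs no scaling between arrays. Relative to miR-3968, miR-5100 had 72.5% of its signal in V6.5 ES, 68.6% in PKM1 KI ES, 82.4% in EB, 62.9% in 2TS22c ES and 70.3% in ZHBTc4 ES, and miR-6366 stayed between 47.6% and 59.5%. miR-5097 stayed between 35.1% and 44.2%, and miR-6412 between 12.2% and 19%. miR-5126 had 27.4%, 34.3% and 40.7% of the miR-3968 signal in V6.5 ES, PKM1 KI ES and EB, and 6.01% and 7.48% in 2TS22c ES and ZHBTc4 ES. Its ratio was thus 4.57 times lower in 2TS22c ES and 3.67 times lower in ZHBTc4 ES than in V6.5 ES. Such a ratio shows that the 2 spots moved unequally, and does not say which of them moved.

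**Figure D3:**
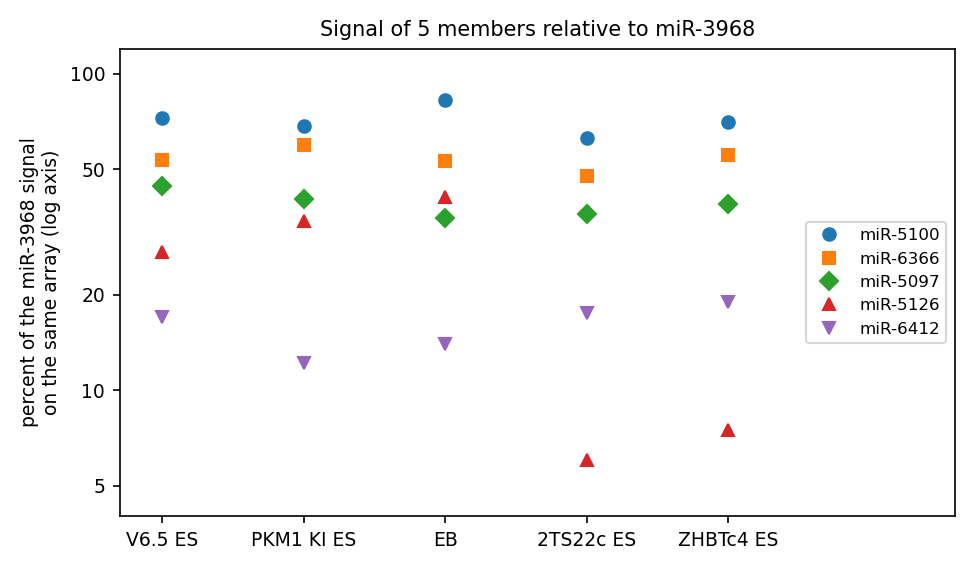
Signal of 5 miRNA spots as a percent of the miR-3968 signal on the same array (log axis), with 1 point per miRNA and array. miR-5100, miR-6366 and miR-5097 keep their order on all 5 arrays, while miR-5126 drops from 27.4% to 40.7% on the first 3 arrays to 6.01% and 7.48% on the last 2.

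The differences from V6.5 ES depended on the scaling, in sign for some of the 6 and in size for others. Quantile normalisation, the main setting, gives each spot a value set by its rank alone. miR-3968 and miR-5100, with equal ranks throughout, therefore have log2 levels of 15.35 and 14.84 on all 5 arrays and differences of 0.00 by construction. That setting says nothing about their change. Median scaling set each array to the median of the 392 miRNAs detected on all 5 arrays. For 2TS22c ES, the log2 difference of miR-3968 was 0.23 with spike scaling, 1.03 with median scaling and 0.36 in the authors' deposited table. For EB it was 0.29, -0.25 and -0.22, so that its sign turned with the scaling. In the authors' deposited table the median of all detected miRNAs was itself shifted, by -0.63 in 2TS22c ES and -0.55 in ZHBTc4 ES. Spots with no value in that table were set to the array's lowest value, and how far this enters the shift was not tested. All 6 had values of their own.

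At least 2-fold was used as the call for a pair of arrays. With quantile normalisation, 0 of the 6 were called in PKM1 KI ES, where 0.229% of 874 detected miRNAs were called higher and 0.114% lower. In EB the count was 0 of 6, against 0.118% of 850 higher and 0.235% lower. In 2TS22c ES, 0 of 6 were called higher (2.99% of 804) and 1 of 6, miR-5126, lower (2.24%). In ZHBTc4 ES, 0 of 6 were called, against 2.61% of 805 higher and 1.99% lower. The median difference of the 6 was 0.00 in PKM1 KI ES, 2TS22c ES and ZHBTc4 ES and -0.18 in EB, and that of all detected miRNAs lay between -0.06 and 0.02. A spot with equal rank on both arrays has 0.00 by construction here, so the medians of 0.00 do not show a lack of change. In 2TS22c ES and ZHBTc4 ES, the median of the 6 was 0.84 and 0.86 with median scaling (all detected miRNAs 0.10 and 0.04). It was 0.04 and 0.24 with spike scaling (all -0.20 and -0.18) and -0.06 and 0.07 with local background. Counts differed under other settings. In 2TS22c ES with median scaling, 2 of 6 were called higher (1.87% of all) and 1 of 6 lower (2.86%). In ZHBTc4 ES, 1 of 6 was called lower with spike scaling (10.1%) and in the authors' deposited table (28.8%), and 1 of 6 higher with median scaling (0.994%). In EB with local background, 1 of 6 was called lower (1.29%).

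miR-5126 was lower in 2TS22c ES and ZHBTc4 ES than in V6.5 ES under every scaling tried. With quantile normalisation its log2 level was 13.28 in V6.5 ES, 13.28 in PKM1 KI ES, 13.53 in EB, 12.15 in 2TS22c ES and 12.33 in ZHBTc4 ES. The log2 difference in 2TS22c ES was -1.12 with quantile normalisation, -1.94 on the spike scale, -1.15 on the median scale and -1.80 in the authors' deposited table. In ZHBTc4 ES it was -0.95, -1.59, -0.98 and -1.45, and it was -0.55 with local background. In 2TS22c ES, 10.7% of 804 detected miRNAs were at least 2-fold lower on the spike scale, and 33.7% in the authors' deposited table. ZHBTc4 ES lay alone on the second chip, so for that array chip and culture cannot be told apart. 2TS22c ES shared its chip with the other 3 cultures.

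miR-6412 was higher than in V6.5 ES in 2TS22c ES and ZHBTc4 ES on each of these scales. The log2 difference was 0.92 in both with quantile normalisation, 0.27 and 0.41 on the spike scale, 1.06 and 1.03 on the median scale, and 0.40 and 0.54 in the authors' deposited table. In PKM1 KI ES it was lower on the spike scale (-0.45), the median scale (-0.50) and in the authors' deposited table (-0.52). In EB it was 0.00 on the spike scale and -0.54 on the median scale.

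**Figure D4:**
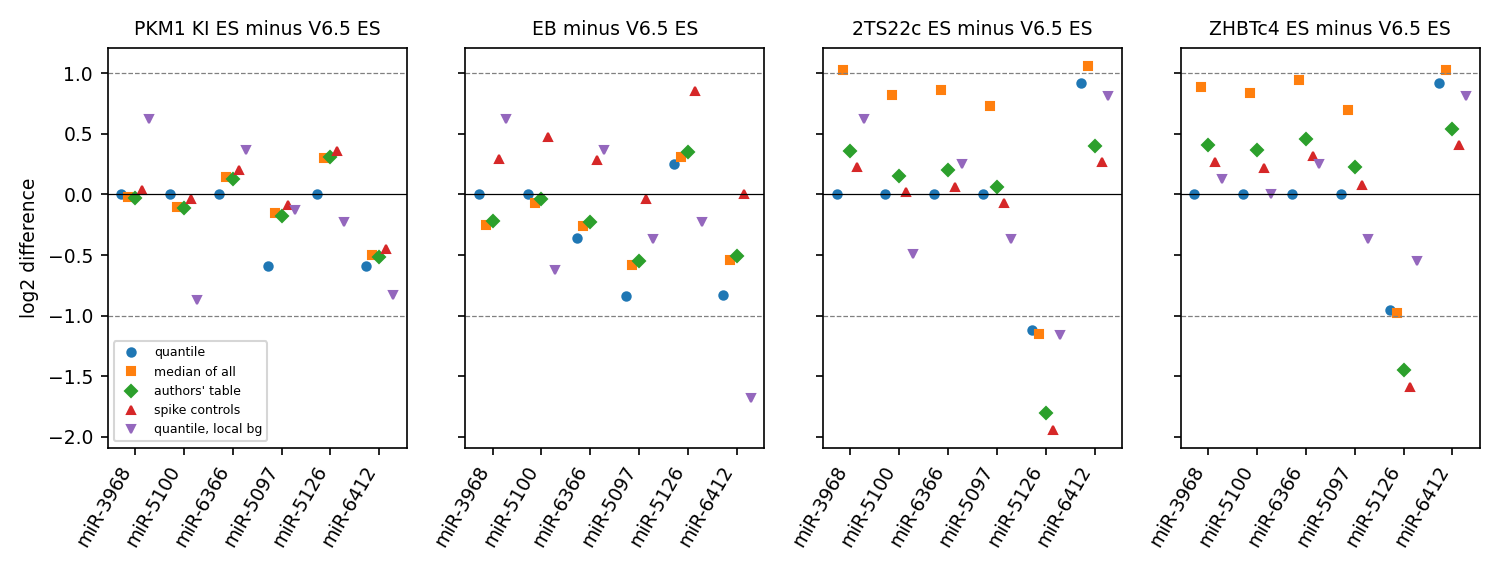
Log2 difference of each of the 6 miRNAs from V6.5 ES in the other 4 cultures, with 1 point per scaling; dashed lines mark a 2-fold difference. Only miR-5126 lies at -0.55 or lower in 2TS22c ES and ZHBTc4 ES under all 5 settings, and quantile points of miR-3968 and miR-5100 lie at 0 by construction.

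The one contrast with a test set EB against the 4 ES arrays, whose spread includes the differences between lines, with the lone EB array assumed to vary as they do. By limma with Benjamini-Hochberg adjustment, 0 of 959 detected miRNAs (0%) and so none of the 6 passed an adjusted p of 0.05. At an unadjusted p under 0.05, limma had 15 higher and 8 lower. The log2 difference, EB minus the ES mean, was -0.36 (SE 0.10) for miR-6366, -0.70 (SE 0.27) for miR-5097, 0.77 (SE 0.53) for miR-5126 and -1.14 (SE 0.65) for miR-6412, each with a limma adjusted p of 0.99. miR-6366 ranked 3 and so had the level 14.48 on all 4 ES arrays, which leaves it no spread of its own. Its SE comes from the variance that limma borrows from all miRNAs and is not a measured spread between lines. On the spike scale the log2 difference was 0.15 (SE 0.16) for miR-3968, 0.42 (SE 0.15) for miR-5100, 0.13 (SE 0.17) for miR-6366 and 1.64 (SE 0.98) for miR-5126. All detected miRNAs had a median of 0.21 there. Over the alternatives the limma adjusted p of the 6 ranged from 0.427 to 1.

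Likeness of pattern over the 5 arrays was described by Pearson's r of log2 values among the 392 miRNAs detected on all of them. No test was made, since 5 arrays are few and share their scaling. The most alike were picked as those with the highest r of all these miRNAs, so their high values come in part from that choice. On the spike scale, miR-5126 was most like miR-762 (r 1.000), miR-5132-5p (0.999) and miR-92b-5p (0.999). With quantile normalisation it was most like miR-6538 (0.997), miR-92b-5p (0.995) and miR-486-3p (0.993). miR-6412 was most like miR-295-5p (0.964), miR-20a-3p (0.922) and miR-293-5p (0.918) on the spike scale, miR-5100 most like miR-17-5p (0.997), and miR-3968 most like miR-181d-5p (0.961). miR-6366 was most like miR-540-5p (0.981), and miR-5097 most like miR-125a-3p (0.836). With quantile normalisation the closest were miR-1949 (0.959) for miR-6366, miR-7a-5p (0.939) for miR-5097 and miR-6364 (0.998) for miR-6412. For these 3 miRNAs, 0 of the 3 closest were shared between the scalings, and for miR-5126 it was 1 of 3. Between miR-5126 and miR-6412, r was -0.76.

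Several of the next 10 spots shared the drop of miR-5126. As a percent of its highest array on the spike scale, the lowest array of miR-2137 had 8.6%, of miR-6538 10.1%, of miR-762 13.9%, of miR-3960 14%, of miR-2861 15.6% and of miR-5109 24.4%. These 6 had their lowest level in 2TS22c ES. miR-3963 (75.8%) and miR-1902 (82.7%) varied less. miR-294-3p (55.2%) and miR-295-3p (57.8%) ran the other way, lowest in V6.5 ES at 0.231 and 0.177 times the spike mean and highest in ZHBTc4 ES at 0.419 and 0.307.

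The labelled cell type was set beside these spots through miRNAs known from mouse ES cells, the 3p arms of the miR-290 cluster, miR-302a to miR-302d and miR-367. The array held 10 of the 11 on that list. Their summed share of the miRNA signal was 3.11% in V6.5 ES, 3.49% in PKM1 KI ES, 2.29% in EB, 6.34% in 2TS22c ES and 6.11% in ZHBTc4 ES. The list did not move as one. miR-302a-3p had medians of 228, 690, 122, 51 and 49 in the same order and miR-302d-3p had 342, 829, 183, 60 and 52, and all 5 miR-302 and miR-367 spots were near the detection limits of 59.9 and 61.6 in 2TS22c ES and ZHBTc4 ES. The 6 spots gave 9.43 to 17 times that signal. miR-294-3p, from the most abundant miRNA cluster of mouse ES cells, had medians of 2745, 3402, 1627, 4149 and 4619 and ranked 17, 16, 24, 8 and 8. miR-3968 was 10.6 to 18.4 times brighter than the brightest miRNA of the list. These are ratios between different probes and do not give a ratio of RNA amounts.

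High registry numbers were counted among the brightest spots. Spots numbered 3000 and over made up 25.5% of the miRNA spots (323 of 1265) and 12 of the 20 brightest (60%) in V6.5 ES, PKM1 KI ES and EB. In 2TS22c ES and ZHBTc4 ES they made up 9 of 20 (45%). The 6 were chosen for brightness and all bear such numbers, so these counts are a description with no test. With the 6 left out, they were 6 of 14 on the first 3 arrays and 3 of 14 on the last 2, and that band held between 30.2% and 37.9% of the remaining signal. Its median spot was 16 above blank in V6.5 ES, against 14 for numbers under 1000 and 20.5 for those from 1000 to below 3000. In 2TS22c ES these medians were 9, 8 and 11.

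The scanner software marked every spot of all 5 arrays as good. The brightness of pixels within a spot varied by 9.11% to 17.3% (coefficient of variation) for 5 of the 6, and by 18.2% to 23.8% for miR-5097. The local background around miR-5097 was 3.94% to 12.6% of its spot median, and that of the other 5 was 10.8% to 67.5%. Over all 1265 miRNA spots, local background rose with spot signal (Spearman rho 0.559 to 0.775 per array). Taking it off thus tends to remove more intensity units from bright spots than from dim ones. As a part of the spot's own signal this does not hold. In V6.5 ES the median local background was 53 and the median miRNA spot 63, while for the 6 it was 5.16% to 58.3% of the spot. Whether that background was light from the spots themselves was not tested.

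Blank spots near the 6 were close to the level of all blanks. The 48 spots adjoining them included 2 blanks, whose median was 48.5, 53.5, 31, 48 and 43.5 in the 5 cultures, against 48, 48, 33, 48 and 49 for all blanks of the same array. At a distance of 2 spots there were 31 blanks, with medians of 48, 48, 32, 48 and 50. Of the 48 adjoining spots, 22 to 30 per array were at or below the detection limit. Of all miRNA spots, only 59.6%, 60.3%, 59.3%, 40.1% and 41.1% in the 5 cultures lay above it. Dim spots are thus common across each array, and the count says nothing particular about the surroundings of the 6. All 6 lay in row 4 of their blocks, a position of the design that was not compared further.

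miR-3968 and miR-5100 shared a stretch of 9 bases that starts at base 1 of the former and base 2 of the latter, so their seeds are offset by 1 base and are not the same. None of the 5 shared its seed with another mature mouse miRNA of the RefSeq table. The word CGAAUCC, searched on the given strand of the mature RNAs, was present in 2 of 1679 mature mouse miRNAs (0.119%), and these were miR-3968 and miR-5100. It lies within the 9 bases that these 2 share, so its presence in both is not a finding apart from that stretch. A sequence of this kind occurs in the T arm of many tRNAs. The search shows only that the letters are present, and tRNA sequences were not analysed here.

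A wider form, CGAA at the first base or after a leading U, was chosen after the sequences had been seen. It was found in 5 of 1679 (0.298%), which were miR-3968, miR-5100, miR-6412, miR-15b-3p and miR-5619-3p. The last 2 were dim, with medians of 63, 51, 36, 61 and 55 for miR-15b-3p and 53, 48, 34, 56 and 53 for miR-5619-3p, near or below the detection limits of 59.9, 59.5, 40.3, 59.9 and 61.6. The other 3 were chosen for brightness, so whether this start goes with a bright spot could not be tested here.

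A 3′ end of CCA was found in miR-3968 and miR-6366 and in 23 of 1679 mature miRNAs in all (1.37%), of which 15 were matched to the array. The other 13 had median signals of 68, 71, 47, 58 and 61 in the 5 cultures, where all miRNA spots had 63, 64, 44, 57 and 59, and none exceeded 117. These letters also occur in the genome at many places. At the annotated locus of miR-3968, the RefSeq hairpin printed below holds the CCA and runs on past it. The interval that RefSeq gives for miR-6366 is as long as its mature RNA, 22 bases with the CCA included. Both annotated ends are thus part of the sequence at their loci. Whether the RNA bound at these spots had a templated or an added end was not tested.

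miR-5126 and miR-6366 were rich in G and C. The GC content was 100% for miR-5126, with 77.3% G, and 72.7% for miR-6366, against a median of 52.2% over all mature mouse miRNAs. It was 57.1% for miR-3968, 61.9% for miR-5100 and 45.5% for miR-6412, which lie at percentiles 67.7, 81.2 and 31.6. Across the 1020 array spots matched to a sequence, GC content and signal had a Spearman rho of 0.359 to 0.493 per array, given as a description with no test, since miRNAs of 1 array share their library and probe design. Its part in the brightness of these spots was not tested.

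The word GGGG, also chosen after values were seen, was present in miR-6366 and miR-5126 and in 188 of 1679 mature miRNAs (11.2%). Array spots that held it had a median of 115 in V6.5 ES, 130 in PKM1 KI ES, 88 in EB, 75.5 in 2TS22c ES and 88 in ZHBTc4 ES. Those without it had 61, 62, 42, 55 and 58. The longest stretches that miR-5126 and miR-6366 shared with another miRNA were of 9 bases, in capitals here because they show which other probes bind similar sequences.
miR-149-3p, shared with miR-5126: gagggagggaCGGGGGCGGugc
miR-762, shared with miR-5126: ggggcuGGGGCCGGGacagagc
miR-711, shared with miR-6366: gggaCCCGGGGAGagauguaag

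These lie at chr1:92850421-92850442, chr7:127708534-127708555 and chr9:108969970-108969991, all on the plus strand of GRCm38.p6 in RefSeq. miR-762, which was also the closest in pattern to miR-5126 on the spike scale, had medians of 4161, 4905, 3952, 905 and 1197. miR-149-3p had 2244, 2595, 2172, 751 and 931, and miR-711 had 2502, 3035, 4933, 494 and 570. All 3 were lower in 2TS22c ES and ZHBTc4 ES than on the other arrays, as miR-5126 was, whereas miR-6366, which shares its stretch with miR-711, was not. Whether probes of similar sequence bound the same RNA was not tested.

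A miRNA hairpin is expected to fold into a stem that holds the mature RNA. The hairpins of miR-3968, at chr11:115447961-115448060 on the minus strand, and miR-5100, at chr11:60728663-60728726 on the plus strand, are printed because these were the brightest spots, with the mature RNA in capitals.
miR-3968 hairpin: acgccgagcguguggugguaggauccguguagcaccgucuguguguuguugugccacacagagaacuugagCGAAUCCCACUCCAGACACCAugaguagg
miR-5100 hairpin: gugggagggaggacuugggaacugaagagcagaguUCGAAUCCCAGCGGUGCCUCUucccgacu

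Folded with RNAfold, the miR-3968 hairpin of 100 bases had a minimum free energy of -28.9 kcal/mol, and 61.9% of its mature bases were paired. Of 1005 mouse hairpins, 91% were as stable or more per base. The paired share could be measured in 991, and in 2.93% of these it was as small or smaller. For genes with more than 1 annotated mature RNA, that share was the mean over them. Those hairpins are thus not measured quite like the ones described here, each with 1. The miR-5100 hairpin of 64 bases had -24.8 kcal/mol, or -38.8 per 100 bases, with 76.2% of the mature bases paired, near the medians of -40.6 per 100 bases and 80%. The miR-6366 hairpin had -45.9 per 100 bases and that of miR-5126 -62.9, where 3.28% of hairpins were as stable or more, and in each 68.2% of the mature bases were paired. Each of the hairpins described here folded into 1 stem without branches, as did 94.5% of the 1005 mouse hairpins. All 5 loci had a mature RNA annotated from 1 arm only, as did 380 of 1058 mouse miRNA genes (35.9%).

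**Figure D5:**
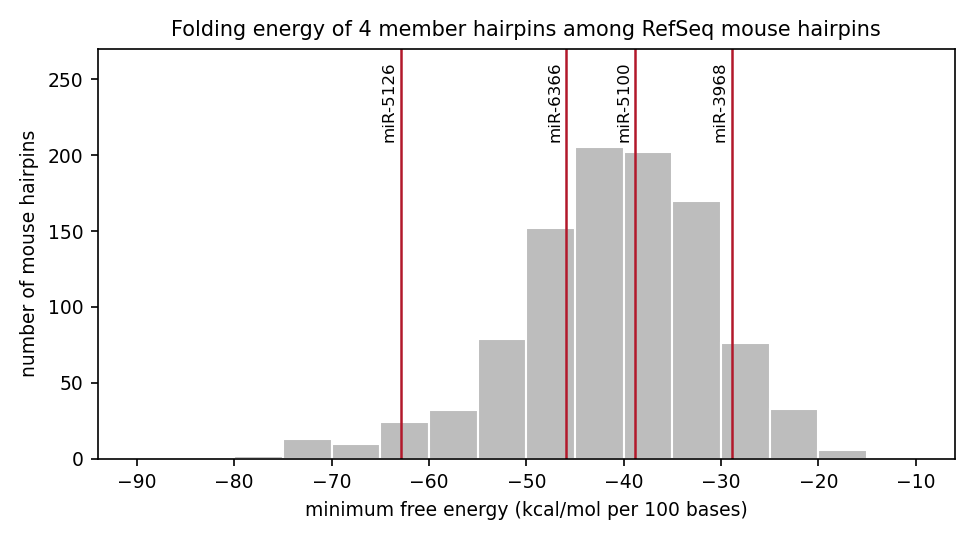
Number of mouse hairpins in RefSeq by minimum free energy per 100 bases (kcal/mol, RNAfold), with lines at the 4 hairpins that were found for the 6 miRNAs. miR-3968, at -28.9, lies on the less stable side, and miR-5126, at -62.9, on the more stable side.

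These features differ among the 5 with a sequence: miR-3968 and miR-5100 share the CGAAUCC word, miR-3968 also has the CCA end, miR-6412 has the CGAA start, miR-6366 has both the CCA end and a run of G, and miR-5126 is made of G and C alone. The arrays give brightness only. Whether the RNA bound at these spots was the annotated miRNA or another RNA was not tested.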

How the data were processed

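The deposited scanner files hold, per the file headers, each spot's intensity (median over its pixels) and the pixel SD in the same intensity units (named "other" in unit). The authors' deposited table holds processed intensity values. How it was made is not given in the sources used here. Set against the scanner values it was linear (Pearson r at least 0.999983) with a median of 25 per array, both over the values present. For shares and differences, spots with no value in it were set to the array's lowest value.

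The share of a spot was its median minus the array's median blank, floored at 0, over the sum of 1265 miRNA spots. Differences used limma 3.58.1 in R 4.3.3: normexp (offset 50), quantile normalisation and log2. Median, spike, local background and detection alternatives were run. A spot was detected above the blank mean plus 2 SD: 754, 763, 750, 507 and 520 miRNAs in V6.5 ES, PKM1 KI ES, EB, 2TS22c ES and ZHBTc4 ES, with all 6 miRNAs on every array. The limma script was tested on simulated data. Hairpins were folded with RNAfold 2.7.2. Precision is limited by the number of arrays.

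The 6 miRNAs and the lists were chosen with earlier results of these data known. Named are the 6, the 10 next brightest by mean rank, the 3 most alike per miRNA, and the ES list; miRNAs that share sequence features were named after their values were seen. No sequence for miR-5097 and no hairpin for miR-6412 was used.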

Additional observations from a re-analysis of the deposited data

Results flagged for a closer look

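A pair of spots outside the miRNA set, with no description in the files, gave signal on every array. S-Probe1014 had medians of 4079, 6104, 3049, 2029 and 2397 in V6.5 ES, PKM1 KI ES, EB, 2TS22c ES and ZHBTc4 ES, so that its lowest value, 2029, lay far above the detection limits of 40.3 to 61.6. S-Probe1018 had 1417, 1687, 908, 1177 and 1400, with 908 as its lowest. Only 9 to 15 miRNA spots per array were brighter than S-Probe1014. What these probes bind is not stated in the files, and their link to the 6 miRNAs was not tested.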

How the results depend on the processing

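The arrays, 1 per culture, limit all of this. No paired analysis was possible because each culture had 1 array. The share of the 6 spots ranged from 38.9% to 60.3% with blank taken off, 38.8% to 59.8% in the authors' deposited table, 39.4% to 60.3% with pixel means, 36.7% (PKM1 KI ES) to 59.2% with local background and 37.4% to 56.6% (ZHBTc4 ES) with normexp. With nothing taken off it was 37.3%, 34.8%, 33.3%, 46.1% and 47.8%. Of 150 ranks under alternatives, 130 equalled those reported. Taking nothing off and normexp keep the order of the spots by construction, so their 30 ranks each had to match. With local background, which can reorder spots, 18 ranks moved and 12 stayed. With pixel means 1 moved and 29 stayed, as in the authors' deposited table, which is linear in the scanner values. The first 4 miRNAs never ranked below 6, and local background put miR-5100 and miR-5097 above miR-3968 in V6.5 ES, put miR-5100 above it in ZHBTc4 ES and moved miR-6412 to rank 22 in EB. For EB against the ES arrays, miR-6366 turned from -0.36 to 0.13 on the spike scale and 0.16 with local background. The count of the 6 at least 2-fold from V6.5 ES became 1 in EB with local background (miR-6412, -1.68; 1.29% of all detected miRNAs lower), 3 in 2TS22c ES with median scaling (miR-3968 and miR-6412 higher, miR-5126 lower; 1.87% of all higher and 2.86% lower), and 1 in ZHBTc4 ES with spike scaling (10.1% of all lower) or the authors' deposited table (28.8% lower), miR-5126 in both, and with median scaling (miR-6412; 0.994% higher). Among the 10 brightest in place of 20, numbers of 3000 and over made up 70% in 2TS22c ES and 70% in ZHBTc4 ES. Blanks at a distance of 2 had a median of 50 in ZHBTc4 ES, against 43.5 next to the spots. The cause of these changes was not tested.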
